A study of Mus musculus with 16 samples.

Results

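The 49 genes described here repair DNA double-strand breaks by homologous recombination or remove DNA crosslinks through the Fanconi anemia pathway. They are the rows of the deposited expression table that carry 1 of 49 gene symbols, out of 18990 genes in all, and they were followed over all 16 bulk RNA sequencing libraries of the series. Each symbol had exactly 1 row, and all 49 genes passed the filter that left 14028 genes for testing. The cells were wild-type BL6 primary mouse embryonic fibroblasts (MEFs), all of them transduced with the doxycycline-inducible tet-STEMCCA lentivirus, which carries *Oct4*, *Sox2*, *Klf4* and *c-Myc* (OSKM), and with an rtTA lentivirus. They were transfected with 40 nM of pooled small interfering RNAs (siRNAs), either non-targeting (nt control) or directed against *Wdr5* (siWdr5), *Brca1* (siBrca1) or *Bard1* (siBard1). One day later reprogramming was started in medium with 2 µg/mL doxycycline, 3 µM chiron, 0.25 µM Alk5i, 50 µg/mL ascorbic acid and LIF, and RNA was collected at day 3 and day 6, with 2 libraries in each of the 8 groups. The knockdown is transient and acts on a mixed culture, and the nt control cultures received the same lentiviruses.

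Homologous recombination begins when the broken DNA end is cut back to a single strand, which mediators such as BRCA2 then cover with a recombinase that searches for a matching sequence on the sister chromatid. The joined molecules are afterwards separated by dissolution or by cutting. Fanconi anemia proteins recognise crosslinked DNA, mark FANCD2 and FANCI with ubiquitin and hand the break over to the same recombination machinery, and most of these genes are expressed more strongly in cells that replicate their DNA than in resting fibroblasts. BRCA1 and BARD1 form a ubiquitin ligase that acts at several of these steps, and WDR5 is a shared subunit of histone H3 lysine 4 methyltransferase complexes.

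The siRNAs against *Brca1* and *Bard1* are shown because both targets belong to the 49 genes. The sense strands are given 5′ to 3′, with the 19 bases that match the target transcript in capitals and the overhang in lower case, and coordinates refer to mm10 with GENCODE vM21 genes. The pool for each gene held further siRNA that is not shown here.
siBrca1, first: GGGAAGCACAAGGUUUAGUtt
siBrca1, second: GGGCCUUCACAAUGUCCUUtt
siBard1, first: CCUCAAGAUAAACCGACAAtt
siBard1, second: GGAUGUGAGCACAUCUUCUtt
The *Brca1* sites lie in exons on the minus strand at chr11:101534000-101534018 and chr11:101535553-101535571, inside a gene that spans chr11:101488764-101551955. The *Bard1* sites lie at chr1:71088167-71088185 and chr1:71089475-71089493, in exons of a minus-strand gene at chr1:71027498-71103146. The first and second *Brca1* siRNA match 2 and 3 of the 7 annotated *Brca1* transcripts, and the *Bard1* siRNAs match the 1 annotated *Bard1* transcript.

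Promoters are shown for the 4 genes with the smallest adjusted p in siBrca1 at day 3 among the members with a RefSeq promoter entry (GRCm38.p6). Each sequence runs 5′ to 3′ on the gene's strand from 250 bases before the start to 50 bases after it. Matches on either strand to 3 short motifs linked with genes of the dividing cell are in capitals: TTTNNCGC, which holds the E2F site, TTTGAA, the core of the cell cycle homology region, and CCAAT, the NF-Y box. Overlapping matches were counted, but a stretch cut off by the end of a window was not. The *Chek1* window ends within such a stretch, gcgggaa, so its lack of a match does not show that a site is absent.
*Chek1*, minus strand, chr9:36726609-36726908: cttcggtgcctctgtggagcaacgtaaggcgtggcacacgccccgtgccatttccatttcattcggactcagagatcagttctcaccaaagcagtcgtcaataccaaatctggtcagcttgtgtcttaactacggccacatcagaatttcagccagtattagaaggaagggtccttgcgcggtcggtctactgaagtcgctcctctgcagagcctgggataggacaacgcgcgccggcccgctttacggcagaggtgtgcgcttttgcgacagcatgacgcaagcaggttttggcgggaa
*Blm*, minus strand, chr7:80534949-80535248: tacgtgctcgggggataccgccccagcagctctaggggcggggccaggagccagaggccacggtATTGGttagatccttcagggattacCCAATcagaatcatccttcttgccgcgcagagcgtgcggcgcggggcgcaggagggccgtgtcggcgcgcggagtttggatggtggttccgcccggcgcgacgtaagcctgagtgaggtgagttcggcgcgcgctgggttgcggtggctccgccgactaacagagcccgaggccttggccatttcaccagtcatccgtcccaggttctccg
*Rad51ap1*, minus strand, chr6:126939538-126939837: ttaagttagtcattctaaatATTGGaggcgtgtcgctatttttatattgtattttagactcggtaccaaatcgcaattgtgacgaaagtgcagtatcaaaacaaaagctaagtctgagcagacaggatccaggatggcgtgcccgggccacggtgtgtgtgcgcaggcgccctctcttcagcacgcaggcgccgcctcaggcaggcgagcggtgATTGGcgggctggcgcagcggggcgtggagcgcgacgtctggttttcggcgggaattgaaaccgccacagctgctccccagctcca
*Bard1*, minus strand, chr1:71102923-71103222: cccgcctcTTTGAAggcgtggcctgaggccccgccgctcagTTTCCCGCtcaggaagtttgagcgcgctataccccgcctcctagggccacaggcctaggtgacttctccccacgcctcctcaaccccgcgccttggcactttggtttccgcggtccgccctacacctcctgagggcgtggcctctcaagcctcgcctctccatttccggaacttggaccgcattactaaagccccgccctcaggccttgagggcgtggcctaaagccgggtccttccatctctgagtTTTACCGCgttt

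An entry was found for 37 of the 49 genes. CCAAT was present in the promoters of 24 of these 37 genes (64.9%), against 37.4% of all 32851 promoters in the table. The letters TTTNNCGC were found in 7 of the 37 (18.9%), against 5.17% of all promoters, and TTTGAA in 6 (16.2%), against 17.9%. Here a gene counted if any of its promoters held the letters, whereas the background counts single promoters. Counted by promoter, the 43 promoters of these genes held CCAAT in 62.8%, TTTNNCGC in 18.6% and TTTGAA in 13.95%. The 7 genes with TTTNNCGC were *Bard1*, *Brca2*, *Brip1*, *Fancg*, *Mcm8*, *Rad51c* and *Rmi1*, and their log2-fold changes in siBrca1 at day 3 had a median of −0.91, beside −0.72 for the 30 genes without it. For CCAAT the order was the other way round, with −0.64 for the 24 genes that hold it and −1.07 for the 13 that do not. These shares and medians are descriptions of the letters in these windows.

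The libraries held 11169738 to 26832534 reads, recovered from the deposited log2 CPM values (CPM is the read count of a gene scaled to the size of its library). At this depth the floor of 3 reads lay between 0.115 and 0.260 CPM. The lowest count of any member in any library was 17 reads (*Rmi2*), and no member reached 0. The targeted transcripts were lower in their own knockdowns at day 3: *Wdr5* stood at 132 and 130.4 CPM in the nt control and at 50.6 and 55.3 CPM in siWdr5 (−1.31 on the log2 scale, adjusted p = 3.02e-06), and *Brca1* and *Bard1* are described with the other members. All 7 fibroblast markers examined, among them *Col1a1* and *Thy1*, were expressed in every library, and their sum ran from 4769 to 14092 CPM. Of the endothelial markers *Cdh5* and *Pecam1* were at 0 reads in at least 1 library and *Kdr* had as few as 2 reads, while *Tek* lay between 13.7 and 57.1 CPM, and the 4 together ranged from 15.8 to 59.6 CPM. The summed leukocyte markers lay between 5.88 and 14.1 CPM and the summed pluripotency markers between 1.74 and 165 CPM. Replicate 2 of siBrca1 at day 3 stood apart from replicate 1 in many of the genes described here, and calls or changes that depend on it are named with the value without it.

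At day 3 most of these genes were lower after knockdown of *Brca1*. Of the 49 members, 37 fell and 1 rose at adjusted p below 0.05 (limma with Benjamini-Hochberg adjustment over 14028 genes), where 21.8% of all genes tested fell and 25.4% rose. The median log2-fold change of the members was −0.80, against 0.00 for all genes tested. With the additional requirement of a log2-fold change below −1, which the study applied to its own calls, 21 members remained, or 42.9%, against 6.27% of all genes. This count rests in part on replicate 2 of siBrca1, without which members such as *Brip1* (−0.71) did not reach −1. The count without that library is not given here. The study had examined a set of homologous recombination genes in these same samples, so the direction of such a list is not independent evidence here.

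**Figure D1:**
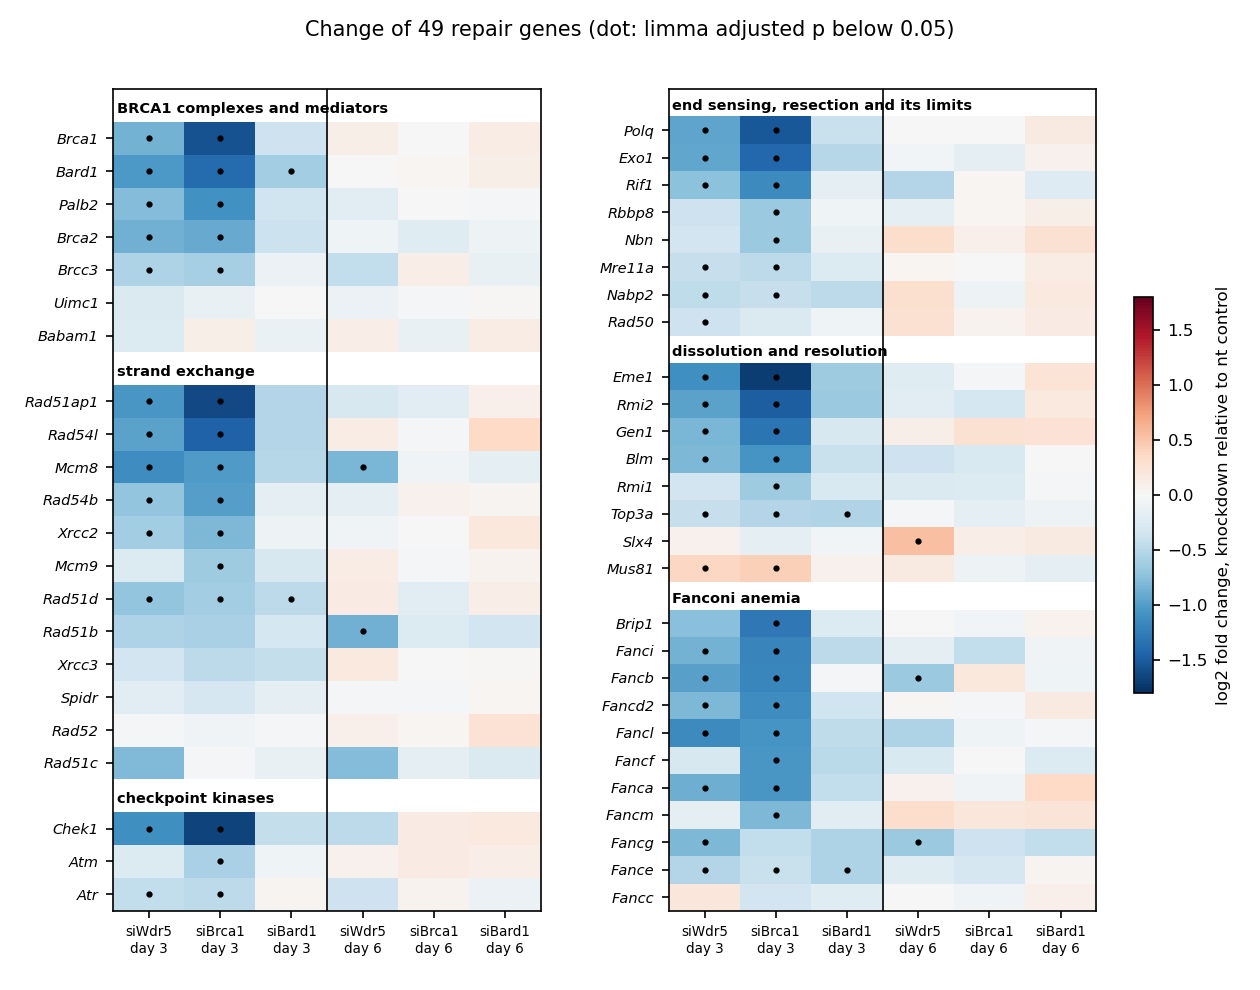
Heat map of the log2-fold change from the nt control of the same day (colour, from −1.8 to 1.8) for the 49 members in rows, ordered by the siBrca1 change within each functional group, and for the 3 knockdowns at day 3 and day 6 in columns. Dots mark adjusted p below 0.05, with 37 members lower in siBrca1 and 31 lower in siWdr5 at day 3, 4 lower in siBard1, and 5 marked at day 6, all of them in siWdr5.

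Among the BRCA1 complexes and mediators, 5 of 7 genes fell in siBrca1. *Brca1* itself was at 82.4 and 78.0 CPM in the nt control libraries and at 37.5 and 19.4 CPM in siBrca1, so the libraries did not overlap but replicate 2 was far lower than replicate 1. The log2-fold change was −1.57 (SE 0.22, adjusted p = 7.90e-05), and it was between −2.05 and −1.10 under all alternatives. *Bard1*, whose product pairs with BRCA1, was at 30.5 and 29.1 CPM in the nt control and at 14.4 and 9.07 CPM in siBrca1, a log2-fold change of −1.38 (SE 0.19, adjusted p = 7.26e-05). *Palb2*, the link between BRCA1 and BRCA2, fell by 1.09 on the log2 scale, *Brca2* by 0.91 and *Brcc3*, a deubiquitinase of the BRCA1-A complex, by 0.59. Without replicate 2 of siBrca1 the change of *Palb2* was −0.64, and without replicate 2 of the nt control *Brcc3* was not called (adjusted p = 0.119). The remaining members of that complex were not called: *Uimc1*, which binds ubiquitin chains, changed by −0.13, and *Babam1*, a scaffold subunit, was at 56.5 and 57.6 CPM in the nt control and at 62.4 and 60.4 CPM in siBrca1, a log2-fold change of 0.11 (95% interval −0.18 to 0.39, adjusted p = 0.538).

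In the strand exchange group, 7 of 12 genes fell in siBrca1. The strongest was *Rad51ap1*, which stimulates joint molecule formation: it was at 23.8 and 26.8 CPM in the nt control and at 10.6 and 6.33 CPM in siBrca1, with both knockdown libraries below both controls (log2-fold change −1.62, SE 0.20, adjusted p = 4.10e-05). The DNA translocase gene *Rad54l* fell by 1.45 and its relative *Rad54b* by 0.99 (−0.64 without replicate 2 of siBrca1), and the helicase genes *Mcm8* and *Mcm9* fell by 1.02 and 0.64. Not all recombinase paralogues were called. *Xrcc2* and *Rad51d* fell by 0.80 and 0.63, while *Rad51b* (−0.58, adjusted p = 0.0719) and *Xrcc3* (−0.48, adjusted p = 0.0689) missed the threshold. *Rad51c* was at 3.43 and 2.25 CPM in the nt control and at 2.42 and 3.02 CPM in siBrca1, with overlapping libraries and a log2-fold change of −0.04 (95% interval −0.71 to 0.63, adjusted p = 0.930). The annealing gene *Rad52* (−0.06) and the scaffold gene *Spidr* (−0.30) were not called either.

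Of the 8 genes for end sensing and resection, 7 fell in siBrca1. *Exo1*, an exonuclease for long resection, was at 50.7 and 53.9 CPM in the nt control and at 25.6 and 15.1 CPM in siBrca1 (log2-fold change −1.41, SE 0.19, adjusted p = 5.57e-05). *Polq*, which joins resected ends by a mutagenic route, was at 29.8 and 29.5 CPM in the nt control and at 13.9 and 7.66 CPM in siBrca1 (−1.52, SE 0.21, adjusted p = 9.06e-05). *Rif1*, which limits resection together with 53BP1, was at 119 and 102 CPM and at 52.4 and 47.1 CPM in the same order (−1.15, SE 0.14, adjusted p = 3.04e-05), with knockdown libraries close to each other. Within the MRE11-RAD50-NBS1 complex *Nbn* fell by 0.67 and *Mre11a* by 0.47, whereas *Rad50*, at 64.1 and 62.1 CPM in the nt control and 54.9 and 50.6 CPM in siBrca1, changed by −0.26 and missed the threshold (adjusted p = 0.0659). *Rbbp8*, the resection factor CtIP, fell by 0.67 and the single-strand binding gene *Nabp2* by 0.42. *Nabp2* was not called without replicate 2 of siBrca1 (adjusted p = 0.166) or without replicate 1 or replicate 2 of the nt control (0.135 and 0.147), and *Mre11a* not without replicate 1 of the nt control (0.053).

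Among the 8 genes for dissolution and resolution of joint molecules, 6 fell and 1 rose in siBrca1. *Eme1*, a subunit of the structure-selective endonuclease MUS81-EME1, had the largest fall of all 49 members, from 14.1 and 14.4 CPM to 6.41 and 2.95 CPM (log2-fold change −1.71, SE 0.27, adjusted p = 0.000201). Its catalytic partner *Mus81* went the opposite way, from 14.5 and 16.7 CPM to 21.6 and 20.5 CPM (0.43, SE 0.13, adjusted p = 0.0168). Both knockdown libraries of *Mus81* were above both controls, and the call was lost without replicate 1 of the nt control (adjusted p = 0.178). *Blm*, the helicase of the dissolution complex, was at 31.2 and 33.2 CPM in the nt control and at 16.7 and 14.3 CPM in siBrca1 (−1.06, SE 0.13, adjusted p = 3.77e-05). Its partners *Rmi2*, *Rmi1* and *Top3a* fell by 1.49, 0.65 and 0.53, and the resolvase gene *Gen1* fell by 1.31. Without replicate 2 of siBrca1 neither *Rmi1* (adjusted p = 0.0697) nor *Top3a* (0.0592) was called, and *Rmi1* was also lost without replicate 1 of the nt control (0.201) and *Top3a* without replicate 2 of it (0.0889). *Slx4*, the scaffold on which nucleases assemble, was at 41.8 and 42.9 CPM in the nt control and at 38.3 and 37.2 CPM in siBrca1, a change of −0.17 that was not called (adjusted p = 0.231).

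Over both libraries of siBrca1 the Fanconi anemia genes had the lowest median of the 6 groups, −1.05, and 9 of 11 fell. The order of the groups was not tested, and without replicate 2 of siBrca1 the changes of several of these genes were smaller. *Brip1*, a helicase that binds BRCA1, was at 16.4 and 17.6 CPM in the nt control and at 10.4 and 4.71 CPM in siBrca1, with replicate 2 far below replicate 1 (log2-fold change −1.28, SE 0.29, adjusted p = 0.00252). *Fanci* and *Fancd2*, the pair that receives ubiquitin, fell by 1.19 and 1.12, and *Fancl*, the ubiquitin ligase that attaches it, by 1.07. Of the other core complex genes *Fancb*, *Fancf*, *Fanca* and *Fancm* fell by 1.17, 1.05, 1.04 and 0.80, and *Fance* by 0.39. Without replicate 2 of siBrca1 the changes were −0.71 for *Brip1*, −0.63 for *Fancd2* and −0.62 for *Fanca*, all still called, and −0.59 for *Fancf*, which was not (adjusted p = 0.0717). *Fance* was not called without that library (0.121) or without replicate 1 or replicate 2 of the nt control (0.209 and 0.101). *Fancg* (−0.44, adjusted p = 0.0569) missed the threshold. *Fancc* was at 15.3 and 12.9 CPM in the nt control and at 10.8 and 11.4 CPM in siBrca1 and missed it as well (−0.34, adjusted p = 0.0902).

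All 3 checkpoint kinase genes fell in siBrca1. *Chek1*, which halts the cycle downstream of ATR, had the smallest adjusted p of all members: 32.9 and 31.2 CPM in the nt control against 12.7 and 8.08 CPM in siBrca1 (log2-fold change −1.66, SE 0.19, adjusted p = 1.89e-05). *Atm*, the kinase that answers double-strand breaks, fell by 0.58. *Atr*, which answers single-stranded DNA, was at 42.9 and 44.6 CPM in the nt control and at 33.2 and 30.2 CPM in siBrca1 (−0.47, adjusted p = 0.00743), and this call was lost without replicate 2 of the nt control (adjusted p = 0.0635).

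**Figure D2:**
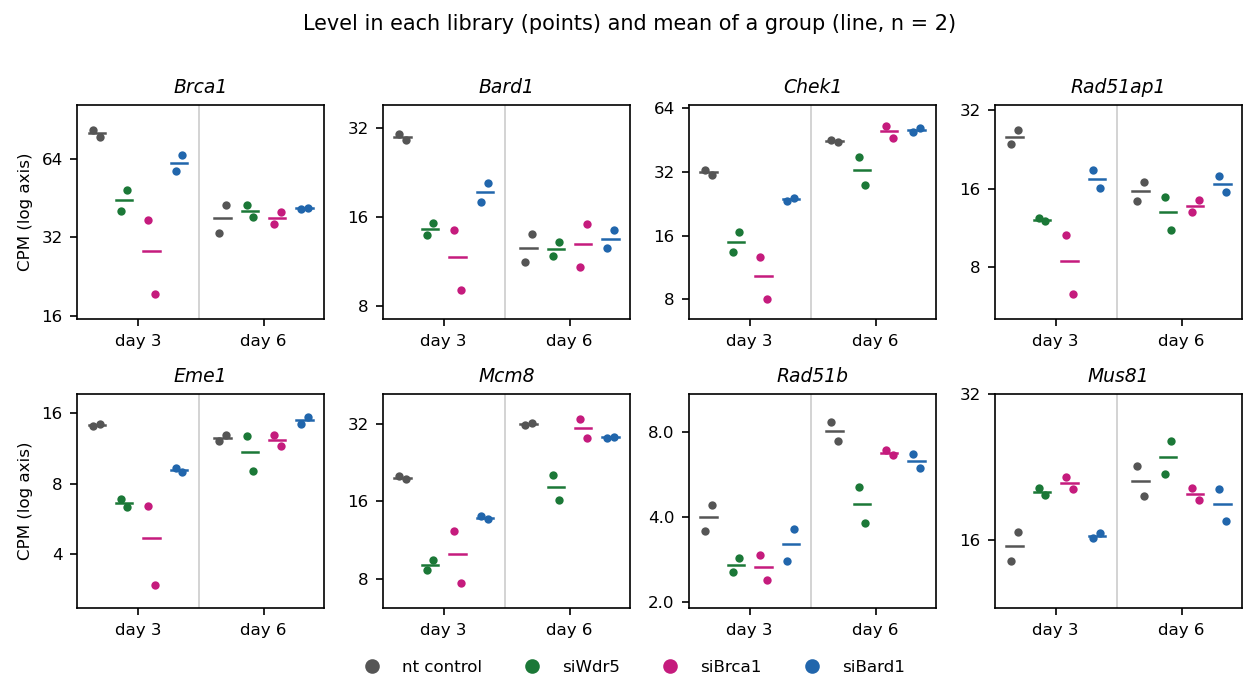
CPM on a log axis in each of the 16 libraries (points) with the group mean (line, n = 2 libraries) for 8 members. *Brca1* and *Bard1* were below the nt control in all knockdowns at day 3 and within its range or close to it at day 6, *Mcm8* and *Rad51b* were lower in siWdr5 on day 6, and *Mus81* was higher in siWdr5 and siBrca1 at day 3.

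The libraries of siBrca1 differed in size of effect. In replicate 2, 43 of the 49 members were lower than in replicate 1, with a median difference of −0.28 in log2 CPM, whereas in the nt control at day 3 the numbers were 25 and 24. The median distance of the members from the nt control mean was −0.57 in replicate 1 and −0.87 in replicate 2. Fewer members were called lower without replicate 2 than without replicate 1, and the shares of all genes in these fits are not given here.

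Cell cycle markers moved in the same libraries. Of 20 S phase markers 19 fell in siBrca1 at day 3, with a median log2-fold change of −1.26, and all 20 G2/M markers fell, with a median of −1.42, so both medians lay below that of the members. The summed level of the G2/M markers was 2199 and 2203 CPM in the nt control, 1235 CPM in replicate 1 of siBrca1 and 653 CPM in replicate 2. None of these 40 markers is a member. The sum of the fibroblast markers went up in siBrca1. It was 7656 and 8653 CPM in the nt control and 11467 to 12614 CPM in siBrca1. Such a sum follows its most abundant genes, and the changes of single fibroblast markers are not given here. The mean log2 CPM over these markers was 8.85 and 8.95 in the nt control and 9.28 and 9.17 in siBrca1. *Des*, the only listed muscle marker with a row in the expression table, went from 30.7 and 40.1 CPM to 164 and 171 CPM. The part of cell division or of the mixture of cells in the change of the members was not tested, and in bulk samples fewer cells of a type and less RNA per cell cannot be told apart.

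**Figure D3:**
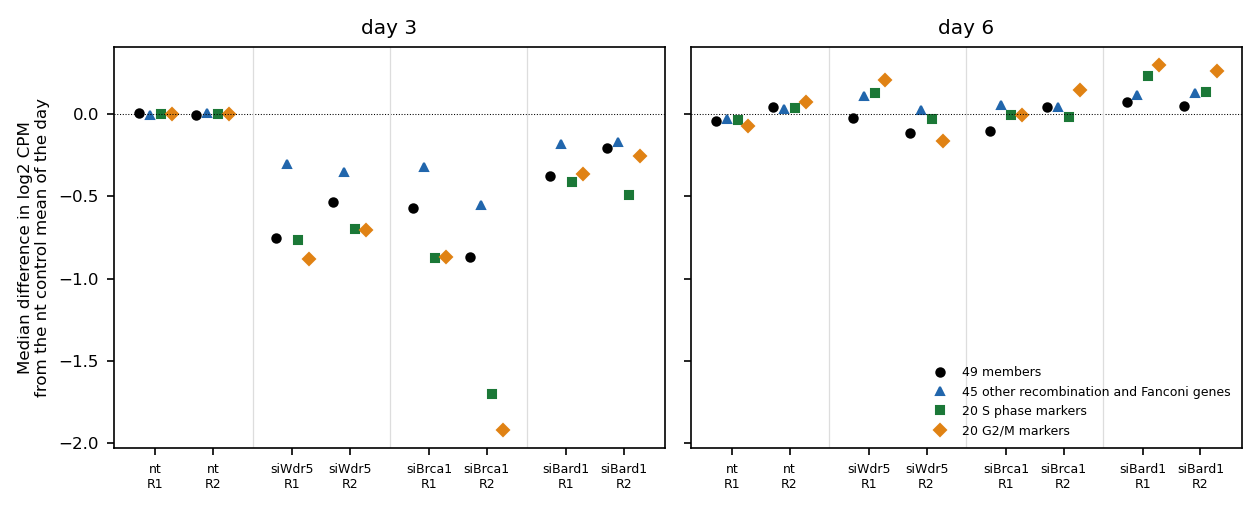
Median difference in log2 CPM from the mean of the day's nt control libraries, for each library (R1 and R2), over the 49 members, 45 other recombination and Fanconi genes, 20 S phase markers and 20 G2/M markers. In replicate 2 of siBrca1 at day 3 the medians were −0.87 for the members and −1.92 for the G2/M markers, and at day 6 the medians of the members lay between −0.11 and 0.07.

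Other genes of the same pathways, 45 outside the 49, behaved in part alike. In siBrca1 at day 3, 25 of the 45 fell (55.6%, against 21.8% of all genes tested) and 2 rose (4.44%, against 25.4%), with a median log2-fold change of −0.44. *Usp1*, which removes ubiquitin from FANCD2, was at 128 and 117 CPM in the nt control and at 61.5 and 47.4 CPM in siBrca1 (−1.18, adjusted p = 1.28e-05). The helicase gene *Rtel1* changed by −1.13 (adjusted p = 4.97e-05) and *Rpa2*, a subunit of the single-strand binding protein RPA, by −1.31 (adjusted p = 0.000102). The genes that rose were *Babam2* and *Faap20*, both by 0.41, which are named because they are the whole count. In siWdr5 19 of the 45 fell (42.2%, against 16.8% of all genes tested) and 1 rose (2.22%, against 18.3%). In siBard1 3 fell (6.67%, close to the 5.87% of all genes tested) and none rose, where 8.67% of all genes did.

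After knockdown of *Wdr5*, compared with the same nt control libraries, 31 of the 49 members fell at day 3 and 1 rose, where 16.8% of all genes tested fell and 18.3% rose. The median log2-fold change of the members was −0.70, and 6 members (12.2%) fell by more than 1 on the log2 scale, against 2.95% of all genes. More calls were lost on leaving out 1 library than in siBrca1. The median of the members was −0.53 without replicate 1 of siWdr5, with 45 values below 0. It was −0.66 without replicate 1 and −0.70 without replicate 2 of the nt control, with 46 values below 0 each. The shares of all genes called in these fits are not given here, so the lost calls cannot be read as particular to the members.

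*Blm* had the smallest adjusted p, with 18.2 and 18.7 CPM in siWdr5 against 31.2 and 33.2 CPM in the nt control (log2-fold change −0.80, SE 0.13, adjusted p = 0.000516). *Chek1* was at 13.4 and 16.6 CPM (−1.10, adjusted p = 0.000652), *Mcm8* at 8.66 and 9.49 CPM against 20.1 and 19.5 CPM in the nt control (−1.12, adjusted p = 0.000704), and *Rad51d* at 21.2 and 19.4 CPM against 34.2 and 32.0 CPM (−0.70, adjusted p = 0.000972). *Bard1* was at 13.9 and 15.3 CPM (−1.03, SE 0.19, adjusted p = 0.00108) and *Brca2* at 16.5 and 17.3 CPM against 29.6 and 32.2 CPM (−0.87, adjusted p = 0.00114). These 6 genes stood below both control libraries in both knockdown libraries, and their calls held under all alternatives tried. *Brca1* was at 40.5 and 48.4 CPM (−0.86, SE 0.22, adjusted p = 0.00796). Its call was lost without replicate 1 of siWdr5 (−0.73) or replicate 1 of the nt control (−0.82). It was also lost in limma with no trend on mean expression (adjusted p = 0.0635).

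By function, 5 of 7 BRCA1 complex and mediator genes, 6 of 12 strand exchange genes, 6 of 8 end sensing and resection genes, 5 of 8 dissolution and resolution genes, 7 of 11 Fanconi anemia genes and 2 of 3 checkpoint kinase genes fell in siWdr5. *Fancl* had the largest fall, 1.15 on the log2 scale, and *Eme1* and *Rad51ap1* fell by 1.11 and 1.05. *Fancl* was not called without replicate 1 of siWdr5 (−0.79, adjusted p = 0.0561) nor *Eme1* without replicate 2 (adjusted p = 0.0635). *Rad51c* was at 1.26 and 2.06 CPM in siWdr5, below both control libraries, but its change of −0.79 missed the threshold (adjusted p = 0.0645). *Mus81* again rose, to 20.5 and 19.8 CPM (0.37, SE 0.13, adjusted p = 0.0448), but it was not called without any 1 of the 4 libraries (adjusted p 0.0802 to 0.316). *Slx4* (0.08) and *Fancc* (0.20) were not called. In the same libraries 16 of 20 S phase markers and 18 of 20 G2/M markers fell, with medians of −0.74 and −0.81, and the fibroblast marker sum was 13564 and 14092 CPM. Their part in the result was not tested.

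After knockdown of *Bard1*, compared again with the same nt control libraries, 4 of the 49 members (8.16%) were called at day 3, all lower, beside 5.87% of all genes tested that fell, and none was higher (limma, and limma-voom on the recovered reads), beside 8.67% of all genes. At an unadjusted p below 0.05, 18 members differed, beside 31.3% of all genes tested. None fell by more than 1 on the log2 scale (0.656% of all genes did). The median log2-fold change of the members was −0.32, with 47 of the 49 values below 0, and without replicate 1 of siBard1 it was −0.21, with 41 below 0. *Bard1* itself was at 18.01 and 20.8 CPM, below both control libraries (−0.62, SE 0.19, adjusted p = 0.0422). The others were *Fance* at 25.4 and 19.0 CPM against 33.6 and 31.3 CPM in the nt control (−0.56, adjusted p = 0.0244), *Rad51d* at 24.5 and 23.1 CPM (−0.48, adjusted p = 0.0246) and *Top3a*, the topoisomerase of the dissolution complex, at 17.7 and 15.2 CPM against 22.8 and 24.8 CPM (−0.54, adjusted p = 0.0282). *Brca1* was at 57.8 and 66.1 CPM and was not called (−0.38, adjusted p = 0.258).

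All 4 calls rested on single libraries. With replicate 1 of siBard1 left out 2 members fell, with replicate 2 left out 1, and with either library of the nt control left out 0 (85 and 58 genes still fell in the whole table without replicate 2 and replicate 1 of the nt control). *Bard1* and *Top3a* lost the call without any 1 of the 4 libraries (adjusted p 0.124 to 0.214 and 0.0537 to 0.205), as did *Rad51d* (0.0633 to 0.206), and *Fance* without replicate 2 of siBard1 (−0.35, adjusted p = 0.210) or without replicate 1 or replicate 2 of the nt control (0.179 and 0.106). Fitting the 4 libraries of siBard1 and nt control alone gave 19 members that fell. The share of all genes that fell in that fit is not given here, so this count cannot be read as particular to the members. Of the cell cycle markers 5 of 20 for S phase and 0 of 20 for G2/M were called, with medians of −0.45 and −0.33, all 40 values being below 0. The fibroblast marker sum was 9552 to 11122 CPM in siBard1 and 7656 to 8653 CPM in the nt control, and *Des* was at 88.6 and 74.6 CPM and at 30.7 and 40.1 CPM. The mean log2 CPM of the fibroblast markers overlapped, at 9.10 and 8.89 in siBard1 and 8.85 and 8.95 in the nt control. The part of these markers in the result was not tested.

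**Figure D4:**
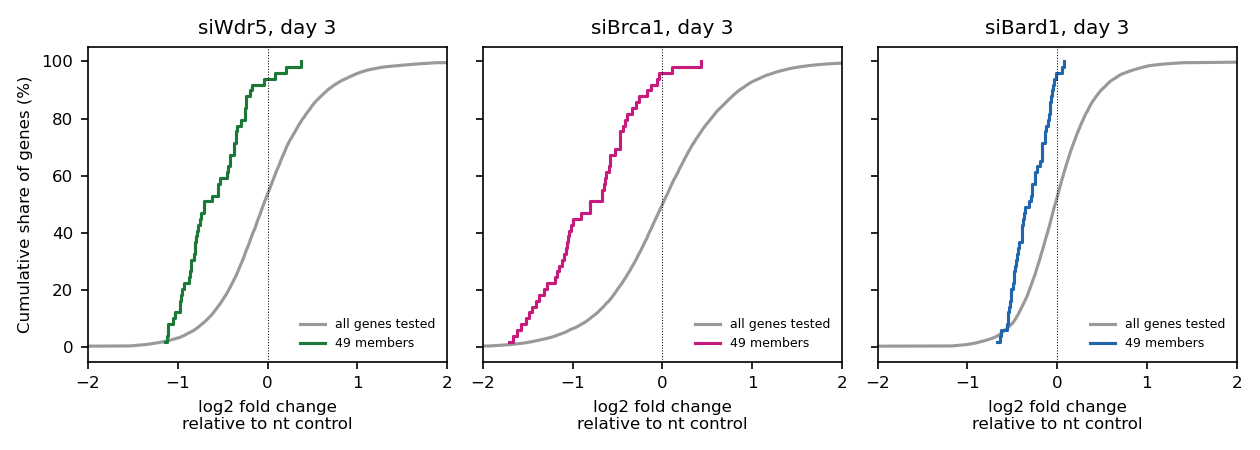
Cumulative share of genes (%) by log2-fold change from the nt control at day 3, for the 49 members (coloured steps) and all 14028 genes tested (grey). The medians of the members were −0.70 in siWdr5, −0.80 in siBrca1 and −0.32 in siBard1, while the grey curves cross 50% close to 0.

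Knockdowns were also compared with each other at day 3. Relative to siBard1, 23 members (46.9%) were lower in siBrca1, against 8.33% of all genes tested, and none was higher. *Chek1* differed by −1.23 (SE 0.19, adjusted p = 0.00373), *Brca1* by −1.20 (adjusted p = 0.00447), *Polq* by −1.13 (adjusted p = 0.00492), *Rad51ap1* by −1.09 (adjusted p = 0.00473) and *Rif1* by −0.98 (adjusted p = 0.00373). *Bard1*, the target in siBard1, was lower in siBrca1 by 0.76 on the log2 scale (−0.76, adjusted p = 0.0136). Without replicate 2 of siBard1 all calls were lost, but the differences remained. The median of the members was then −0.50 in place of −0.53, with 45 values below 0 in place of 42. *Chek1* differed by −1.21, *Rad51ap1* by −1.20, *Brca1* by −1.10, *Polq* by −1.05, *Rif1* by −0.77 and *Bard1* by −0.65. The share of all genes that kept a call in that fit is not given here. Without replicate 2 of siBrca1 fewer members were called, and *Bard1* was not among them (−0.42). Without that library the differences of *Brca1*, *Polq* and *Rad51ap1* were −0.72, −0.70 and −0.72, all still called.

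Relative to siWdr5, only 3 members (6.12%) were lower in siBrca1, beside 5.47% of all genes tested. They were *Brca1* (−0.72, adjusted p = 0.0389), *Fancm* (−0.63, adjusted p = 0.0156), the translocase that recruits the core complex, and *Fancc* (−0.54, adjusted p = 0.0324). *Fancm* was at 26.4 and 30.0 CPM in siWdr5 and at 21.4 and 15.5 CPM in siBrca1, and *Fancc* at 17.4 and 15.002 CPM and at 10.8 and 11.4 CPM, so neither gene overlapped. With replicate 1 of siBrca1 left out 24 members differed, with replicate 2 left out 1, and with either library of siWdr5 left out 0. *Brca1* and *Fancm* were not called without replicate 2 of siBrca1, with differences of −0.24 and −0.40 (adjusted p = 0.306 and 0.0947), *Brca1* differed by −1.19 without replicate 1 of it, and none of the 3 genes was called without replicate 1 (0.128, 0.0767 and 0.235) or replicate 2 of siWdr5 (0.264, 0.153 and 0.0858). *Bard1* differed by −0.35 (95% interval −0.75 to 0.05).

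Relative to siBard1, 4 members (8.16%) were lower in siWdr5, against 3.78% of all genes tested. These were *Fancb* (−0.94, adjusted p = 0.0293), at 3.50 and 4.12 CPM in siWdr5 and 6.87 and 7.67 CPM in siBard1, *Chek1* (−0.68, adjusted p = 0.0401), *Rif1* (−0.57, adjusted p = 0.0225; −0.36 without replicate 2 of siBard1) and *Atr* (−0.49, adjusted p = 0.0271). All 4 calls were lost without replicate 1 of siWdr5 (adjusted p 0.232 to 0.325), replicate 2 of siWdr5 (0.0699 to 0.108) or replicate 2 of siBard1 (0.209 to 0.242), and *Fancb*, *Chek1* and *Atr* also without replicate 1 of siBard1 (0.0862, 0.126 and 0.0537), where 2 members were called.

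In the nt control the level of these genes changed between the days. Of the 49 members 22 (44.9%) were lower at day 6 than at day 3 and 5 (10.2%) were higher, where 27.1% and 19.0% of all genes tested were, with a median log2-fold change of −0.48 for the members. The summed level of the members ranged from 1380 to 1417 CPM at day 3 and from 1029 to 1103 CPM at day 6. *Bard1* went from 30.5 and 29.1 CPM to 11.3 and 14.0 CPM (−1.24, SE 0.21, adjusted p = 0.000187), *Rad54l* from 29.0 and 26.1 CPM to 9.89 and 13.3 CPM (−1.26, adjusted p = 0.000248), *Exo1* from 50.7 and 53.9 CPM to 24.5 and 24.9 CPM (−1.08, adjusted p = 0.000303) and *Mre11a* from 49.6 and 46.4 CPM to 30.0 and 31.1 CPM (−0.65, adjusted p = 0.000316). *Brca1* went from 82.4 and 78.0 CPM to 33.2 and 42.6 CPM (−1.09, adjusted p = 0.000709). All 5 genes were lower in both day 6 libraries, and their calls held under all alternatives. By function, 6 of 8 end sensing and resection genes and 4 of 11 Fanconi anemia genes fell.

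The members that rose in the nt control were *Rad51b*, from 3.57 and 4.41 CPM to 8.69 and 7.39 CPM (1.01, SE 0.22, adjusted p = 0.00172), *Mcm8*, from 20.1 and 19.5 CPM to 31.7 and 32.3 CPM (0.70, adjusted p = 0.00514), *Mus81*, from 14.5 and 16.7 CPM to 22.8 and 19.8 CPM (0.45, adjusted p = 0.0136), *Rad51c* (0.86, adjusted p = 0.0259) and *Chek1*, from 32.9 and 31.2 CPM to 45.3 and 44.2 CPM (0.48, adjusted p = 0.0421). The recombinase paralogues thus differed in direction, since *Rad51d*, *Xrcc2* and *Xrcc3* fell by 0.52, 0.48 and 0.62. Without replicate 1 of the nt control at day 6, 14 members fell in place of 22, and with any 1 of the 4 libraries left out 3 members rose. *Mus81* was not called without replicate 1 of day 6 (adjusted p = 0.127) or of day 3 (0.131), *Rad51c* without replicate 2 of day 6 (0.52, adjusted p = 0.257) or of day 3 (0.56, adjusted p = 0.243), *Xrcc2* and *Xrcc3* without replicate 1 of day 6 (0.201 and 0.136) or either library of day 3 (0.0604 to 0.206), and *Chek1* without any 1 of the 4 (0.0997 to 0.164). Between the days 12 of 20 S phase markers and 11 of 20 G2/M markers fell, and the day and the cell mixture cannot be told apart in these libraries, since the epithelial marker sum was 43.1 to 64.4 CPM at day 3 and 505 to 680 CPM at day 6.

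At day 6 few members differed from the nt control. In siBrca1 none of the 49 members was called, and none of all 14028 genes was (0.0%), while 2 members and 1123 genes had an unadjusted p below 0.05 (limma) and limma-voom on the recovered reads also called none. In siBard1 no member was called either, where 0.0784% of all genes were, and 1 member and 1908 genes had an unadjusted p below 0.05. The medians of the members were −0.03 in siBrca1 and 0.08 in siBard1. *Brca1* was at 35.9 and 40.1 CPM in siBrca1 at day 6 and at 33.2 and 42.6 CPM in the nt control (0.01, 95% interval −0.31 to 0.33), and *Bard1* at 12.6 and 14.5 CPM in siBard1 and 11.3 and 14.0 CPM in the nt control (0.11, 95% interval −0.34 to 0.55). *Brca1* and *Bard1* libraries of knockdown and control overlapped in these comparisons.

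The target of siWdr5 was no longer called at day 6: *Wdr5* was at 85.5 and 72.4 CPM in siWdr5 and at 91.8 and 98.1 CPM in the nt control (−0.27, adjusted p = 0.189). In these libraries 5 members (10.2%) were called in either direction, where 21.8% of all genes tested were. The directions differed: 4 members (8.16%) were lower and 1 (2.04%) was higher. Of all genes tested, 800 were lower and 2260 were higher, so the pooled share of all genes came mostly from genes that rose. *Mcm8* was at 20.2 and 16.2 CPM against 31.7 and 32.3 CPM in the nt control (−0.82, SE 0.15, adjusted p = 0.00709) and *Rad51b* at 5.10 and 3.80 CPM against 8.69 and 7.39 CPM (−0.86, SE 0.21, adjusted p = 0.0196). The core complex genes *Fancb*, at 6.20 and 7.12 CPM against 10.9 and 10.2 CPM (−0.67, adjusted p = 0.0361), and *Fancg*, at 5.17 and 5.67 CPM against 8.93 and 8.27 CPM (−0.67, adjusted p = 0.0367), were lower too, and *Slx4* was higher, at 40.3 and 47.8 CPM against 27.6 and 33.1 CPM (0.54, adjusted p = 0.0249). For all 5 genes the libraries of knockdown and control did not overlap. The call count was 0 without replicate 2 of siWdr5 or replicate 2 of the nt control, and 1 without replicate 1 of the nt control. *Brca1* (0.11) and *Bard1* (−0.01) were not called.

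The calls of single genes at day 6 rested on the same libraries. *Mcm8* missed the threshold without replicate 2 of siWdr5 (adjusted p = 0.0829) or replicate 2 of the nt control (0.0627), *Rad51b* without these (0.170 and 0.0745) or replicate 1 of the nt control (0.125), *Slx4* without the same 3 libraries (0.0676 to 0.196), and *Fancb* and *Fancg* without any 1 of the 4 (0.121 to 0.164 and 0.122 to 0.169). At this day 2 of 20 S phase markers and 1 of 20 G2/M markers were higher in siWdr5 and 1 G2/M marker was lower, and the fibroblast marker sum was 8949 and 12376 CPM in siWdr5 against 4769 to 4942 CPM in the nt control. Its part in the result was not tested.

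The difference between the days was tested as the day 6 change minus the day 3 change. In siBrca1 24 of the 49 members had a higher value at day 6, where 10.3% of all genes tested did, and no member had a lower one. The median over the members was 0.74. *Chek1* had a difference of 1.81 (SE 0.26, adjusted p = 0.00207), *Gen1* of 1.59 (SE 0.29, adjusted p = 0.00304), *Brca1* of 1.58 (SE 0.30, adjusted p = 0.00390), *Bard1* of 1.41 (SE 0.29, adjusted p = 0.00564) and *Rad51ap1* of 1.43 (SE 0.30, adjusted p = 0.00578). *Chek1*, which was at 12.7 and 8.08 CPM at day 3, was at 53.0 and 46.6 CPM at day 6, and *Gen1* went from 9.58 and 6.40 CPM to 10.4 and 14.3 CPM while the nt control went from 19.2 and 19.7 CPM to 9.73 and 10.3 CPM. Leaving out replicate 2 of siBrca1 at day 3 gave 10 members, replicate 2 of siBrca1 at day 6 15, replicate 1 of the nt control at day 3 12 and at day 6 13, and replicate 2 of the nt control at day 3 16, whereas these 5 genes were called in all alternatives. Of the markers, 19 of 20 for S phase and 20 of 20 for G2/M differed in the same direction, and their part was not tested.

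In siWdr5 only *Rad51d* differed between the days, 1 of 49 members (2.04%) against 3.4% of all genes tested (0.85, SE 0.17, adjusted p = 0.0262). It was at 21.2 and 19.4 CPM at day 3 and 27.0 and 24.0 CPM at day 6, and the call was lost when any 1 of the 8 libraries was left out (adjusted p 0.0522 to 0.109). The median difference over the members was 0.49, but that over all genes was 0.12, and centring each library on its median gene moved these to 0.36 and −0.02. *Brca1* (0.96, adjusted p = 0.0760) and *Bard1* (1.02, adjusted p = 0.0564) missed the threshold. In siBard1 no member differed, where 0.0214% of all genes were higher, 11 members had an unadjusted p below 0.05 (limma), beside 19.2% of all genes tested, and limma-voom called none.

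**Figure D5:**
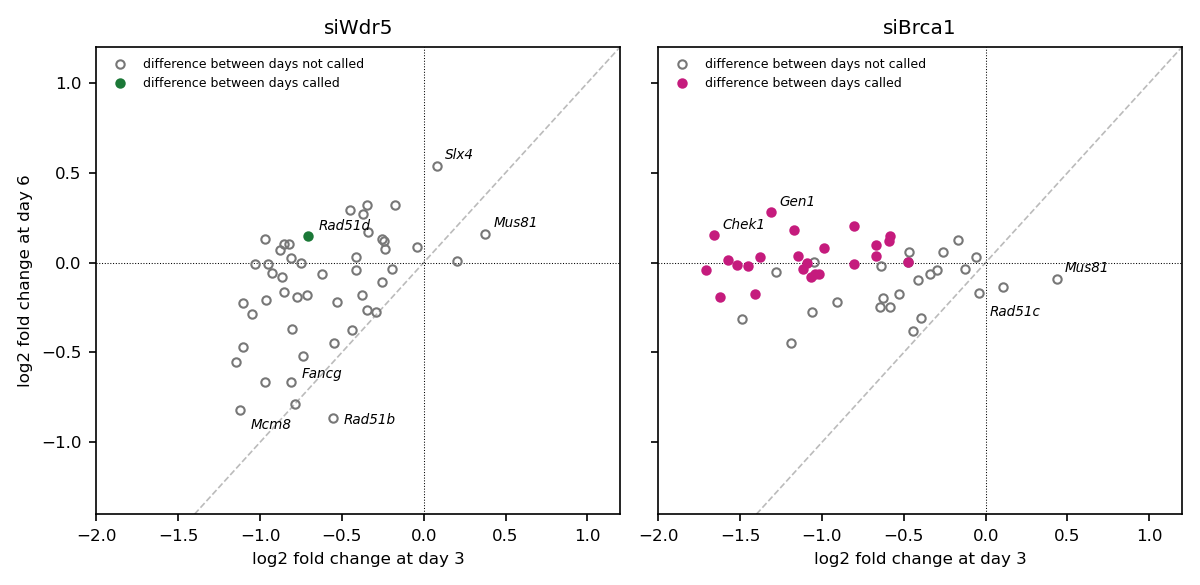
Log2-fold change from the nt control at day 3 (horizontal axis) and day 6 (vertical axis) of each of the 49 members in siWdr5 and siBrca1, with the line of equal change dashed. Filled points are members whose difference between the days was called, 24 in siBrca1 and 1 in siWdr5, and the points of siBrca1 lie near 0 at day 6, from −0.45 to 0.28.

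Between genes, levels can be compared only per length. In the nt control at day 3, per kilobase of annotated exon, the lowest member was *Rad51c* at 0.648 CPM, followed by *Rad51b* at 1.06 CPM and *Rmi2* at 1.12 CPM, and the highest were *Babam1* at 23.7 CPM, *Nabp2* at 17.5 CPM and *Nbn* at 12.9 CPM. *Rad51c* and *Rmi2* had 18 and 17 reads in their lowest libraries, so their values are among the least precise. Some members share exon bases with neighbours: 35.8% of *Rad54b* with *Fsbp* on the same strand, and on the opposite strand 19.2% of *Mcm9*, 18.6% of *Fancc*, 15.95% of *Fanci*, 15.4% of *Rad54l*, 14.96% of *Fancf*, 13.7% of *Fancl*, 10.7% of *Eme1* and 10.5% of *Fanca*. Since it is not stated whether counting used strand, reads of these genes and their neighbours cannot be told apart, and 28.0% of the 43-base stretches of *Rmi1* occur in other genes as well.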

How the data were processed

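RNA of 16 libraries (8 groups of siRNA and day, 2 libraries each) was ribosomal RNA depleted and sequenced paired-end with 43-base reads. A figure legend of the study describes the replicates as coming from independent experiments. The authors aligned reads to mm10 with STAR 2.5.2b and deposited log2 CPM values computed with edgeR 3.20.9, with library scaling and a prior already in them. The read counter, annotation and filter were not given in the sources used here, and the authors' own calls, made from read counts, were not used. All 16 columns were assigned from their labels.

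All values could be turned back into whole reads (100% within a tolerance of 0.01). CPM in the text is 2 to the power of the deposited value and includes the prior of 0.136 CPM. P-values measure only the spread between these libraries. The 14028 genes whose log2 CPM averaged 0 or more were tested with limma 3.58.1 in R 4.3.3 on the deposited values, with the 8 libraries of a day in 1 model, or all 16 libraries for the nt control between days and for the difference between days, and with a trend on mean expression. Two-sided p-values were Benjamini-Hochberg adjusted over these genes, and a gene was called at 0.05. Steps were tested on simulated data.

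Members, functional groups, marker lists and the naming rule were all chosen with earlier results of these data known. Values in every library are given for *Brca1*, *Bard1*, the called members with the smallest adjusted p in each comparison (6 for each knockdown at day 3, 4 in each direction for the nt control, 5 elsewhere), the members with the largest and smallest change of each functional group in siBrca1 at day 3, those called against the common direction, and 3 other pathway genes. Other members are named with their change alone, to account for each functional group, and *Babam2* and *Faap20* were named after their values were seen. Of the marker lists, *Ptprc*, *Myod1* and *Myog* had no row in the expression table and were not analysed here. Coordinates come from GENCODE vM21 (mm10), promoters from RefSeq (GRCm38.p6) and siRNAs from the study's supplement. Tests were repeated with no filter, with a floor of 2 on the mean log2 CPM, with no trend, centring on the median gene, quantile normalization, pseudocounts of 1 and 0.1 CPM, a replicate block, limma-voom on the recovered reads, and leaving out each library, those within a day also with the 4 libraries of the groups compared or all 16 libraries, and the day 3 comparisons with the nt control with the study's fold threshold.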

Additional observations from a re-analysis of the deposited data

Results flagged for a closer look

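The change relative to the nt control differed between day 3 and day 6, by a test of the difference itself, for 24 members in siBrca1 and for 1 member in siWdr5. Expressed as the day 6 value less the day 3 value, this difference in siBrca1 was 1.81 for *Chek1*, 1.59 for *Gen1*, 1.58 for *Brca1*, 1.43 for *Rad51ap1* and 1.41 for *Bard1*, and in siWdr5 it was 0.852 for *Rad51d* (log2 scale, limma). No group held enough libraries to look for a single outlying sample.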

How the results depend on the processing

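With an added log2-fold change below −1, 6, 21 and 0 members fell in siWdr5, siBrca1 and siBard1 at day 3 in place of 31, 37 and 4. The 21 in siBrca1 rest in part on its replicate 2. In siBard1 at day 3 no filter and no trend left 1 each, limma-voom gave 12 and the 4 libraries alone 19. For siWdr5 at day 6 (5 called) a mean log2 CPM of at least 2 gave 8, centring 9, the replicate block 8 and the 4 libraries alone 8. The difference between the days in siWdr5 (1 called) gave 4 with a mean of at least 2, 0 with no trend, 2 with a pseudocount of 1 CPM, 6 with the replicate block and 4 with limma-voom. For siBrca1 against siWdr5 (3 called) no filter, no trend and the 4 libraries alone gave 0, centring 5 and the replicate block 7. For siBrca1 against siBard1 (23 called) no filter gave 12, no trend 0 and the 4 libraries alone 11, and for siWdr5 against siBard1 (4 called) these gave 0, 0 and 21, and all 16 libraries 2. The cause was not tested, and the shares of all genes under these settings are not given here.

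Leaving out 1 library gave 12 to 24 members lower in siWdr5 and 0 to 2 in siBard1 at day 3, 0 to 4 called in siWdr5 at day 6, 0 for the difference between days in siWdr5, 10 to 29 in siBrca1, 0 to 24 for siBrca1 against siWdr5, 0 to 31 for siBrca1 against siBard1, 0 to 2 for siWdr5 against siBard1, and 14 to 21 lower and 3 higher in the nt control between days. A lone library is then assumed to vary like the other groups. For most of these fits the shares of all genes called are not given here, so the counts cannot be read as particular to the members.

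The labels give groups the same replicate numbers but do not say that these pair libraries. Replicate differences of groups correlated from −0.09 to 0.07 at day 3 and from −0.07 to 0.26 at day 6 across genes, so the numbers were not taken to pair the libraries, and the replicate block gave 37 members lower in siBrca1 and 32 in siWdr5 at day 3. With 2 libraries a group, differences smaller than the intervals given were not detectable.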
